A study of Mus musculus with 28 samples.

Results

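Fam212b, Slc25a25 and B3galt2 are 3 genes picked as little studied ones. They were followed here across every mouse and group of a pituitary RNA-seq series, and they are 3 of the 32594 genes of its count table. They had been chosen because their counts rose after restraint in the same data, so their levels after restraint are given as a description and without a test. The choice was not made on their response to sleep deprivation, their difference between the sexes or the behaviour of their relatives and neighbours. Those were tested, in the same mice.

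Whole pituitaries came from 28 C57BL/6J mice, an inbred wild-type strain, labelled as 8 weeks old (in the study's methods, the age at arrival), with no transgene or deletion named in the labels. The 4 treatments were home cage control, restraint for 20 min, PSD (paradoxical sleep deprivation: standing on narrow columns over water, the animal wakes when its muscles slacken) for 12 h, and PSD followed by restraint. There were 4 females in every treatment, and 4, 2, 3 and 3 males in that order. Tissue was taken 10 min after restraint and 18 h after PSD, and controls stayed in their home cages, so the column setting goes with the sleep loss and cannot be told apart from it. Mice of every group, controls included, had been habituated to the sleep deprivation procedure beforehand.

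Fam212b, now also called Inka2, encodes a protein that binds and inhibits the kinase PAK4, one of the p21-activated kinases that act on the actin cytoskeleton. Slc25a25 encodes SCaMC-2, a carrier of the inner mitochondrial membrane that exchanges ATP-Mg for phosphate and has calcium-binding domains that set its activity. B3galt2 encodes a Golgi enzyme that adds galactose in beta-1,3 linkage to sugar chains of glycoproteins and glycolipids. In the anterior pituitary, hypothalamic hormones such as CRH act through cyclic AMP and calcium, and transcription factors of the CREB family, which bind the letters TGACGTCA (a cyclic AMP response element) or its shorter form TGACG, are a known step of that signalling.

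In the GENCODE M21 annotation of mm10, Fam212b lies on the plus strand of chromosome 3 from 105704599 to 105720842 as a protein-coding gene with 2 transcripts. Slc25a25 lies on the minus strand of chromosome 2 from 32414487 to 32451445 and has 12 transcripts, and B3galt2 lies on the plus strand of chromosome 1 from 143640664 to 143654614 and has 1. RefSeq on GRCm38.p6 gives 6 promoter windows for these genes, 2 for Fam212b, 3 for Slc25a25 and 1 for B3galt2, each from 250 bases before to 50 after a transcription start. TGACG, searched on both strands, was found in 3 of these windows, 1 for each gene, and the sequences below are those 3, shown because they hold the motif. They are printed 5′ to 3′ on the strand of the gene, with the motif in capitals. The first is the window before the second start of Fam212b (chr3:105705208-105705457, plus strand), the next that before the third start of Slc25a25 (chr2:32424067-32424316, minus strand), and the last that of B3galt2 (chr1:143640447-143640701, plus strand).
Fam212b: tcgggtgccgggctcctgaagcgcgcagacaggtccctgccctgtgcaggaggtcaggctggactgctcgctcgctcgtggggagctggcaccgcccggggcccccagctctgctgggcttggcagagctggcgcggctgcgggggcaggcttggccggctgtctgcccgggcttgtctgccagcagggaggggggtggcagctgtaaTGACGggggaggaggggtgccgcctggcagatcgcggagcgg
Slc25a25: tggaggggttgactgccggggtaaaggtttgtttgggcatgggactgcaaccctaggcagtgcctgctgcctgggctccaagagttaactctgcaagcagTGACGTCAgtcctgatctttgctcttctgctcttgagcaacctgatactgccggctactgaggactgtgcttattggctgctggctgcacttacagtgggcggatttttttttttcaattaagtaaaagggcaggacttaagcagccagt
B3galt2: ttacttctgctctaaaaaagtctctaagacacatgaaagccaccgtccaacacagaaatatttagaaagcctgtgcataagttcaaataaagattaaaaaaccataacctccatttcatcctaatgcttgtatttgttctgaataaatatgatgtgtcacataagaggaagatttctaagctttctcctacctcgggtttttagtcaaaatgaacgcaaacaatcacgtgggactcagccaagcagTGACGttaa
The motif began at position -42 from the RefSeq start of Fam212b and at -4 from that of B3galt2, where its last base is the first transcribed one. The GENCODE start of B3galt2, 143640664, lies before this motif, which by that annotation is inside the transcript. In Slc25a25 the capitals spell the full element TGACGTCA, beginning at -150, which contains TGACG once on each strand. Of all 32851 RefSeq windows, 20.8% held TGACG and 1.79% held TGACGTCA, and by gene 23% of 27025 and 2.03% had at least 1 such window. The shares by gene are not matched for the number of windows. A gene with 2 or 3 windows, such as Fam212b or Slc25a25, has more room for a match than a gene with 1. The 6 windows held no NBRE (AAAGGTCA, the site of NR4A receptors, in 1.51% of all windows), no AP-1 site (TGANTCA, in 7.81%), no EGR site (GCGTGGGCG, in 0.612%), no glucocorticoid response element (in 0.00913%) and no CArG box (in 1.63%). These matches are letters in a window and do not show that a factor was bound.

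Libraries held between 14024465 and 52948531 counts, with a median of 33389717, and the genes were read at 415 to 2833 counts (Fam212b), 891 to 6375 counts (Slc25a25) and 138 to 1212 counts (B3galt2) per mouse. Levels are given in CPM, the counts of a gene relative to the TMM-scaled total of its library. The labelled tissue was checked against 8 anterior pituitary markers such as Gh, Prl and Pomc, none of which was at 0 in any mouse and whose summed level lay between 238310 and 363259 CPM. Female PSD + restraint mouse 1 was the shallowest library. Female PSD mouse 1 had the highest sum of 7 markers listed as forebrain, 204 CPM, against 21.8 to 101 CPM in the other groups. Among the 7 is the olfactory marker gene Omp, whose highest level in any mouse was 82.7 CPM. Male control mouse 1 had the lowest sum of 5 neurointermediate lobe markers, 380 CPM. In whole tissue, more RNA of a gene per cell and more cells that express it cannot be told apart.

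Per kilobase of exon, Slc25a25 had the highest level of the 3 genes and B3galt2 the lowest. In female controls the level was 4.07 CPM per kb for Fam212b, 6.48 for Slc25a25 and 0.748 for B3galt2, with 4.781, 7.862 and 9.288 kb of merged exons. In male PSD + restraint mice, the group with the highest mean of Fam212b and Slc25a25, the levels were 15.0, 18.2 and 2.62 CPM per kb. The order of the 3 genes was thus the same in both groups.

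Fam212b, the PAK4 inhibitor gene, stood 2.38-fold higher after restraint in females and 2.19-fold higher in males. The 4 female controls had 23.1, 18.8, 20.4 and 15.6 CPM, and the 4 restrained females had 42.8, 57.6, 37.7 and 46.1 CPM. The 4 male controls had 19.2, 21.0, 20.3 and 20.1 CPM, and the 2 restrained males had 39.9 and 48.0 CPM. Every restrained mouse lay above every control of its sex, which was so for 2.76% of the 18059 genes tested in females and 6.34% of the 18271 tested in males, and the gene had been chosen for that. The fitted log2 fold change of restraint against control was 1.25 (SE 0.17) in females and 1.13 (SE 0.096) in males.

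Fam212b reached its highest values in the series after PSD + restraint. Females had 30.4, 29.6, 30.5 and 23.7 CPM after PSD and 76.6, 51.7, 55.0 and 41.6 CPM after PSD + restraint. Males had 26.3, 25.4 and 28.2 CPM after PSD and 75.3, 77.9 and 61.5 CPM after PSD + restraint. Again no restrained mouse overlapped with the unrestrained mice of its sex, as for 4.23% of genes in females and 7.53% in males. Against PSD alone the log2 fold change was 0.98 (SE 0.17) in females and 1.43 (SE 0.094) in males, and against home cage control it was 1.53 (SE 0.17) and 1.84 (SE 0.087). The female mean of 56.2 ± 14.8 CPM (SD, n = 4) holds mouse 1, the shallowest library, without which the step over PSD was 0.80.

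Slc25a25, the mitochondrial ATP-Mg/phosphate carrier gene, stood 2.16-fold higher after restraint in females, with a step of about that size in males. Its levels were 58.8, 48.1, 48.0 and 48.8 CPM in female controls and 101, 129.6, 90.8 and 117 CPM in restrained females. In males they were 66.7, 43.4, 48.9 and 47.2 CPM in controls and 104 and 123 CPM after restraint. The restrained mice were all above the controls of their sex, as for 2.76% of genes in females and 6.34% in males, and the gene had been chosen for that. The log2 fold change was 1.11 (SE 0.11) in females and 1.14 (SE 0.21) in males. After PSD, females had 46.3, 54.9, 51.2 and 57.4 CPM and males 80.5, 56.7 and 107 CPM. After PSD + restraint, females had 132, 106, 123 and 105 CPM and males 138, 166 and 125 CPM. The groups did not overlap here either, as for 4.23% of genes in females and 7.53% in males. The log2 fold change over PSD was 1.15 (SE 0.11) in females and 0.82 (SE 0.20) in males, where PSD mice already spread over a wide range. Against home cage control the combined treatment gave 1.20 (SE 0.11) and 1.48 (SE 0.19).

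B3galt2, the galactosyltransferase gene, had the lowest counts and the largest fold change of the 3 with restraint alone, 2.72-fold in females and 2.88-fold in males. Female controls had 6.65, 6.24, 8.43 and 6.47 CPM and restrained females 13.9, 20.4, 19.9 and 21.4 CPM. Male controls had 6.43, 6.15, 6.46 and 5.23 CPM and restrained males 14.6 and 20.2 CPM. No restrained mouse overlapped with a control of its sex, as for 2.76% of genes in females and 6.34% in males, and this gene too had been chosen for that. The log2 fold change was 1.45 (SE 0.20) in females and 1.53 (SE 0.20) in males. PSD females had 8.36, 10.1, 7.26 and 8.26 CPM and PSD males 7.31, 9.58 and 10.6 CPM. PSD + restraint females had 37.0, 23.4, 21.4 and 16.9 CPM and PSD + restraint males 25.5, 30.0 and 17.4 CPM. The step over PSD was 1.53 (SE 0.20) in females and 1.41 (SE 0.19) in males, again without overlap, as for 4.23% and 7.53% of genes. The step over home cage control was 1.82 (SE 0.20) in females and 2.02 (SE 0.18) in males. Mouse 1 of the PSD + restraint females was the highest of the series, and without it the female step over PSD was 1.28.

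**Figure D1:**
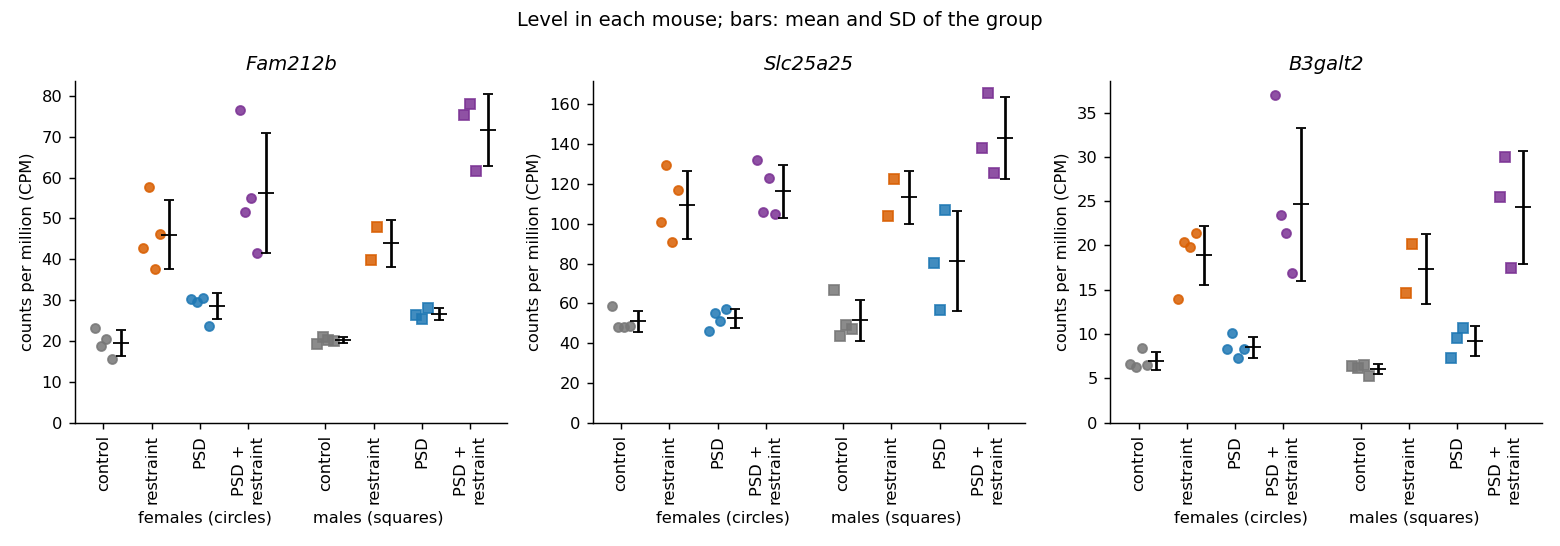
Level of Fam212b, Slc25a25 and B3galt2 in each of the 28 mice, in CPM on axes that start at 0, by treatment for females (circles) and males (squares); black bars are the mean and SD of a group. All restrained mice, with or without PSD, sit above the unrestrained mice of their sex and PSD status, a rise for which the genes had been chosen. Female PSD + restraint mouse 1 is the highest point of B3galt2 at 37.0 CPM.

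Ordered by mean, the 4 unrestrained groups were the 4 lowest and the 4 restrained groups the 4 highest for each gene. Fam212b went in steps from female control (19.4 CPM) and male control (20.2 CPM) to male PSD (26.6 CPM) and female PSD (28.6 CPM). The ranges of the controls overlapped with each other but not with those of the next group, and the same held for the PSD groups and the male restraint group above them. The 4 restrained groups followed with 43.9 CPM in restrained males, 46.1 CPM in restrained females, 56.2 CPM in PSD + restraint females and 71.6 CPM in PSD + restraint males, each overlapping with its neighbour.

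For Slc25a25, each of the 8 groups overlapped with the next. The controls and female PSD lay close together at 50.9, 51.5 and 52.4 CPM, male PSD lay between them and the restrained groups at 81.3 ± 25.1 CPM (SD, n = 3), and PSD + restraint males were highest at 143 ± 20.5 CPM (SD, n = 3). For B3galt2, the order ran from male control (6.07 CPM), female control (6.95 CPM), female PSD (8.50 CPM) and male PSD (9.18 CPM) to male restraint (17.4 CPM), female restraint (18.9 CPM), male PSD + restraint (24.3 CPM) and female PSD + restraint (24.7 CPM). The only gap between neighbouring ranges was that between male PSD and male restraint.

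Whether PSD alone, 18 h after it ended, left a trace on these genes was tested against home cage controls. Both the controls and the PSD mice also served in the comparisons with restrained mice for which the genes had been chosen. A choice on that rise favours low controls, which can raise the estimate for PSD. It also favours low levels after PSD alone, which can lower the estimate. The p-values allow for neither. Fam212b was higher after PSD: all 4 PSD females and all 3 PSD males lay above every control of their sex, as did 3.83% of genes in females and 4.69% in males. In the model of all mice it passed the test with a log2 fold change of 0.49 (SE 0.11, adjusted p = 0.0383, edgeR's quasi-likelihood test), in a comparison that called 0.671% of 18936 genes. Fitted by sex it was 0.55 in females (SE 0.17, adjusted p = 0.136) and 0.41 in males (SE 0.088, adjusted p = 0.181), where edgeR called 0.0277% and 0.00547% of genes. With DESeq2 both sexes passed, at adjusted p = 0.0473 and 0.0121, in comparisons where it called 442 genes in females (2.61%) and 85 in males (0.564%), as shares of the genes to which it gave an adjusted p. On simulated counts for this comparison, DESeq2 called 18 unchanged genes in females and 31 in males, where edgeR called 6 and 9. The changed genes there had a log2 change of 1, and the tools differed far less in their numbers of calls than in the data. The simulation thus cannot decide between the tools for Fam212b.

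The call for Fam212b in all mice stood close to the threshold. Without female control mouse 2, 3 or 4 the log2 fold change was 0.48, 0.50 or 0.45, and without female PSD mouse 1, 2 or 3 it was 0.46, 0.47 or 0.46. Without male control mouse 1, 3 or 4 it was 0.48, 0.49 or 0.49, and without male PSD mouse 2 or 3 it was 0.52 or 0.49. In each of these 11 fits the adjusted p lay above the limit, with a highest value of 0.0962, and the difference stayed above 0 when any 1 of the 28 mice was left out (0.45 to 0.53).

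Markers of the neurointermediate lobe had higher medians after PSD as well, beside Fam212b, except Rax in males. The median of Rax was 4.37 CPM in male controls and 3.67 CPM in PSD males. All 5 markers (Pax7, Pcsk2, Oacyl, Rax and Col25a1) were above 0 in every mouse, and their summed level was 1222 to 1862 CPM in female controls against 1753 to 4271 CPM in PSD females. In males it was 380 to 1762 CPM in controls and 1771 to 2482 CPM after PSD. With the mean log2 level of these markers as a further term, the log2 fold change of Fam212b in all mice was 0.39 and no longer called (adjusted p = 0.131). Summed macrophage markers (5 genes) were 63.8 to 68.4 CPM in female controls and 69.7 to 96.2 CPM in PSD females, and 67.2 to 78.5 CPM and 70.6 to 71.0 CPM in the corresponding males, and their part in the result was not tested.

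Slc25a25 did not pass the test after PSD, with a log2 fold change of 0.34 (SE 0.12, adjusted p = 0.165) in all mice. In females the estimate was 0.05 with a 95% interval of -0.18 to 0.28, and no PSD female lay above the highest control. In males it was 0.66 (SE 0.19, adjusted p = 0.335), and 2 of 3 PSD males were above the highest control. The difference between the sexes, female minus male, was -0.61 (95% interval -1.08 to -0.14) with an unadjusted p of 0.0127 in edgeR's model and an adjusted p of 0.369. Slc25a25 thus gave the widest difference between sexes after PSD of the 3 genes, and it did not hold after adjustment over all genes.

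B3galt2 likewise missed the threshold after PSD, at 0.44 (SE 0.14, adjusted p = 0.125) in all mice. In females the log2 fold change was 0.29 (95% interval -0.15 to 0.73, adjusted p = 0.448), and 1 of 4 PSD females lay above the highest control. In males it was 0.61 (SE 0.18, adjusted p = 0.359), with all 3 PSD males above the 4 controls, as for 4.69% of genes tested in males. The difference between the sexes was -0.32 (95% interval -0.93 to 0.30, adjusted p = 0.741). For Fam212b the same difference was 0.15 (95% interval -0.30 to 0.60, adjusted p = 0.854).

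Among restrained mice, earlier PSD was tested in the same way, by comparing PSD + restraint with restraint. The levels of both groups had entered the choice of the genes, which the p-values do not allow for. No member passed. Fam212b had a log2 fold change of 0.46 (SE 0.12, adjusted p = 0.149) in all mice, 0.28 in females (SE 0.17, adjusted p = 0.452) and 0.71 in males (SE 0.10, adjusted p = 0.0883). All 3 PSD + restraint males were above both restrained males, as were 12.7% of all genes tested in males, against 1 of 4 PSD + restraint females above the highest restrained female (no overlap in 3.36% of genes). edgeR called 0.0951% of genes in all mice, 0.0332% in females and 0.00547% in males. DESeq2 called Fam212b in males (adjusted p = 3.4e-06) and in all mice (adjusted p = 0.0394), where it called 123 genes (0.877%) and 65 genes (0.408%).

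The male value of Fam212b among restrained mice rested on 2 against 3 mice. Without PSD + restraint male 3 it was 0.80 and passed the test (adjusted p = 0.0249), and without restrained female 2 the value in all mice was 0.54 and passed (adjusted p = 0.0350). Without PSD + restraint female 1, the shallowest library, the female estimate fell to 0.10. Neurointermediate lobe markers summed to 1162 to 2642 CPM in restrained females, 1814 to 2920 CPM in PSD + restraint females, 1288 to 1953 CPM in restrained males and 1820 to 3358 CPM in PSD + restraint males. With their mean level as a term, Fam212b was 0.67 in males (adjusted p = 0.0488) and 0.06 in females (adjusted p = 0.951). The difference between the sexes was -0.43 (95% interval -0.91 to 0.06, adjusted p = 0.513).

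Slc25a25 in restrained mice with and without PSD gave 0.18 (95% interval -0.097 to 0.45, adjusted p = 0.578) in all mice. In females it was 0.09 (adjusted p = 0.736) with 1 of 4 above the highest restrained mouse. In males it was 0.34 (adjusted p = 0.625) with all 3 above both, as for 12.7% of genes tested in males. B3galt2 was 0.42 (95% interval 0.12 to 0.72, adjusted p = 0.227) in all mice, 0.38 among females (adjusted p = 0.388) and 0.49 among males (adjusted p = 0.445), with overlapping ranges in both sexes. In females the B3galt2 estimate was 0.13 without PSD + restraint mouse 1. The difference between the sexes was -0.25 (adjusted p = 0.752) for Slc25a25 and -0.11 (adjusted p = 0.933) for B3galt2.

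**Figure D2:**
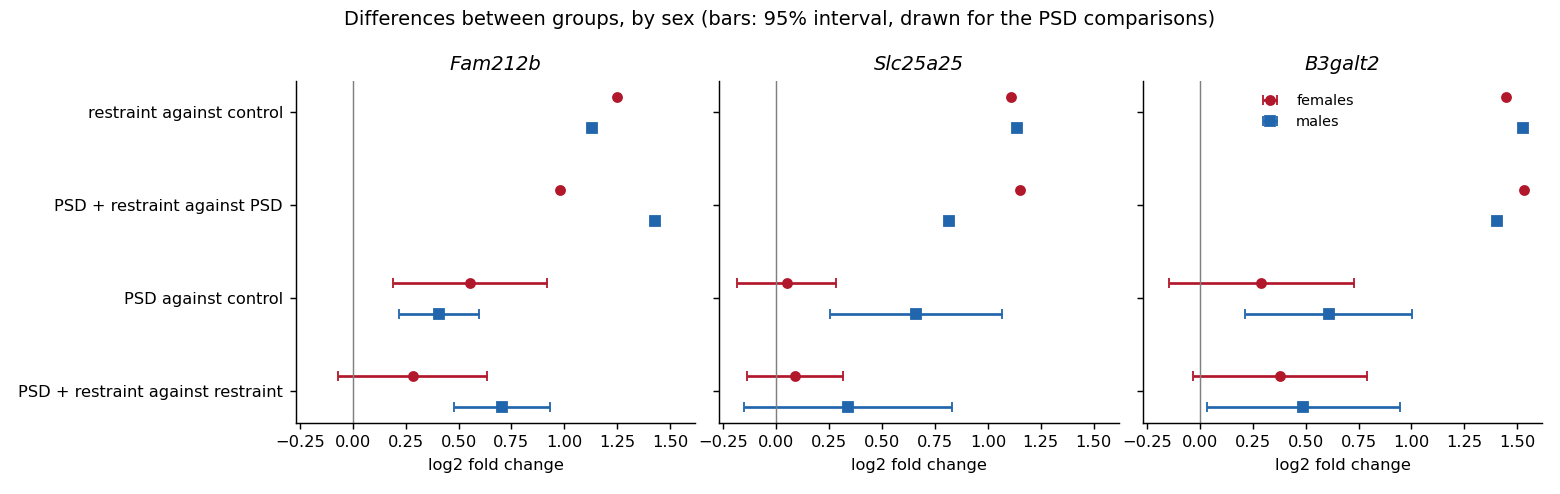
Log2 fold changes of the 3 genes from edgeR's models by sex (red circles: females; blue squares: males), with restraint comparisons on top and PSD comparisons below; bars are 95% intervals and are drawn only for the PSD comparisons, since the genes were chosen on their restraint response. Restraint gave 0.82 to 1.53, PSD against control 0.05 to 0.66 and PSD + restraint against restraint 0.09 to 0.71.

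Between the sexes, with treatment in the model, Fam212b (-0.07, SE 0.083, adjusted p = 0.559) and B3galt2 (0.05, SE 0.10, adjusted p = 0.732) did not pass the test. Slc25a25 was lower in females by a log2 difference of -0.25 (SE 0.092), with an adjusted p of 0.0351 that passes while the size does not reach the fold change threshold. Its group means were close in controls (50.9 CPM in females and 51.5 CPM in males) and further apart after PSD (52.4 and 81.3 CPM) and PSD + restraint (116 and 143 CPM). Of all genes, 14.9% were called between the sexes. Without male control mouse 1, the highest male control for Slc25a25, the difference was -0.22 with an adjusted p of 0.0669.

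The levels of the 3 genes followed each other from mouse to mouse, also among mice that had all been restrained. Over the 13 restrained mice, Pearson's r of log2 CPM after removing the mean of each sex was 0.88 between Fam212b and Slc25a25, 0.83 between Fam212b and B3galt2, and 0.75 between Slc25a25 and B3galt2. Over the 15 unrestrained mice it was 0.39, 0.64 and 0.59. With the mean of each of the 8 groups removed, r over 28 mice was 0.45, 0.63 and 0.40. These are descriptions: the values share libraries and their scaling, and the restrained and unrestrained sets each mix mice with and without PSD. The sex means were taken over all 28 mice, and a smaller share of males than of females had been restrained. This offsets the sexes within each set and can add to r there.

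**Figure D3:**
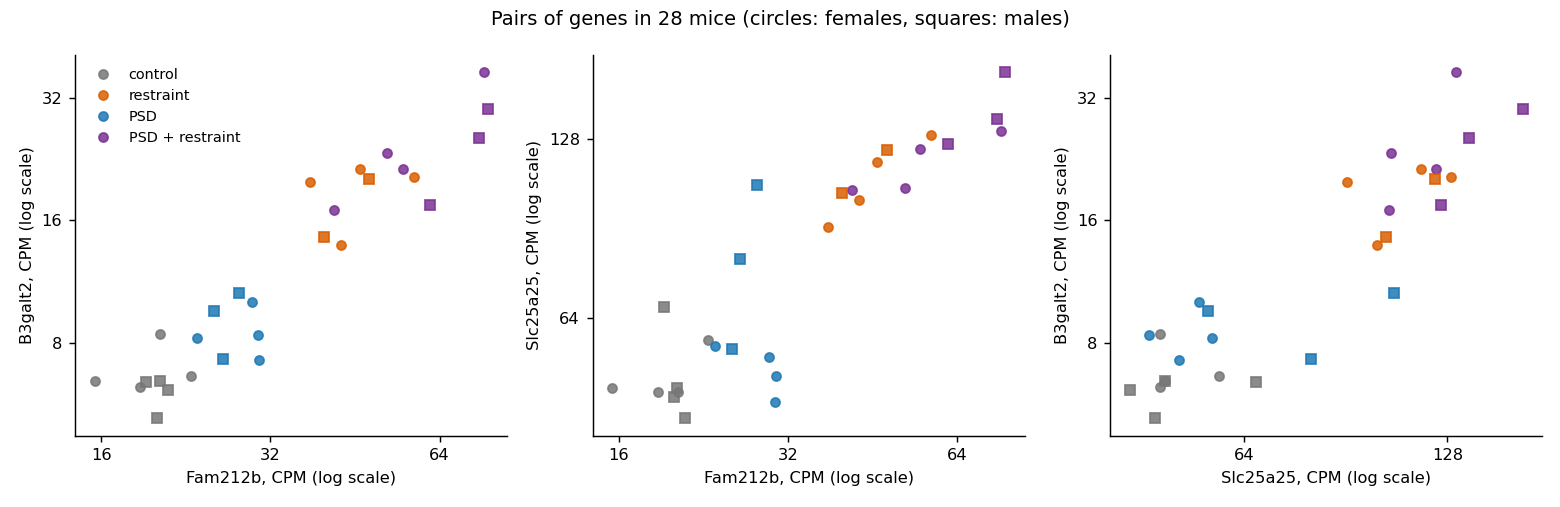
Levels of each pair of genes in the 28 mice, in CPM on log axes, with colour for treatment and circles for females or squares for males. Restrained mice (orange and purple) form the upper right cloud in each panel, and 2 PSD males lie to the upper left in the panel of Fam212b and Slc25a25, at 80.5 and 107 CPM of Slc25a25.

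The genes with the most similar pattern over all 28 mice were found by the same correlation among 18936 genes, which follows mainly the gap between restrained and unrestrained mice. For Fam212b they were Gadd45b, a growth arrest and DNA damage inducible gene (r = 0.952), B3galt2 itself (0.951) and Gem, which encodes a small GTP-binding protein that restrains calcium channels (0.933). Gadd45b went from 12.95 ± 2.06 CPM in female controls to 39.4 ± 10.97 CPM after restraint (SD, n = 4), and it stood at 22.5 ± 5.31 CPM after PSD alone. Like Fam212b, it thus had a PSD mean between control and restraint in females, and in males the 3 means were 11.1, 24.6 and 38.3 CPM.

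Slc25a25 was most like the clock gene Per1 (r = 0.980) and the orphan nuclear receptor genes Nr4a2 (0.978) and Nr4a3 (0.976). Per1 was at 67.4 ± 15.1 CPM in female controls, 65.9 ± 2.42 CPM after PSD and 206 ± 52.6 CPM after restraint (SD, n = 4). In males the mean after PSD was 138 ± 75.8 CPM (SD, n = 3) against 68.4 ± 27.6 CPM in controls (n = 4), and Slc25a25 was at 81.3 ± 25.1 CPM in the same PSD males. Nr4a3 had means of 1.84 and 37.3 CPM in control and restrained females, where Slc25a25 had means of 50.9 and 109.5 CPM.

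B3galt2 was most like Zc3h12c, a gene of the CCCH zinc finger ribonuclease family (r = 0.967), Nap1l5, a nucleosome assembly protein family gene (0.951), and Fam212b (0.951). Zc3h12c went from 19.1 ± 1.62 to 28.4 ± 4.83 CPM and Nap1l5 from 184 ± 11.3 to 269 ± 23.7 CPM between control and restrained females (SD, n = 4). The mean of B3galt2 went from 6.95 to 18.9 CPM between these groups. In the same ranking, Slc25a25 stood at place 15 for Fam212b, with r = 0.909.

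Genes related to the 3 members by sequence or pathway did not pass the test in the comparisons below, other than Fam212a and those that differed between the sexes. A total of 45 such genes were in the table, 12 around Fam212b (its paralog Fam212a, the p21-activated kinases, the GTPases Cdc42 and Rac1, the LIM kinases and cofilin), 16 around Slc25a25 (its paralogs, aspartate, adenine nucleotide and phosphate carriers, and the calcium uniporter and its regulators) and 17 around B3galt2 (beta-1,3- and beta-1,4-galactosyltransferases and their partners). Of the 44 tested, edgeR called 0 for restraint against control, 0 for PSD against control and 0 for PSD + restraint against restraint, as did DESeq2, which over all genes called 1.5%, 1.72% and 0.408%. The numbers with an unadjusted p under 0.05 in edgeR's test were 6, 6 and 5 of the 44, beside 1948, 3328 and 2560 of all 18936 genes. Over all genes, edgeR called 1.14%, 0.671% and 0.0951% in these comparisons. The median log2 fold change of the 44 genes was 0.00362, -0.025 and -0.010, beside 0.000555, 0.00678 and -0.000455 over all genes tested.

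Fam212a (Inka1) was the only related gene called by edgeR when PSD + restraint was compared with PSD, where 2.01% of all genes were called, and it was lower, with a log2 fold change of -0.61 (SE 0.14, adjusted p = 0.0113). Its level was 1.66 ± 0.239 CPM in PSD females and 1.12 ± 0.308 CPM in PSD + restraint females (SD, n = 4), and 1.73 ± 0.277 CPM and 1.10 ± 0.201 CPM in the corresponding males (SD, n = 3). After restraint alone its log2 fold change was -0.18 (adjusted p = 0.751), and after PSD alone 0.42 (adjusted p = 0.102). For PSD + restraint against PSD, 9 of the 44 related genes had an unadjusted p under 0.05 in edgeR's test, beside 2612 of all 18936 genes.

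Among the paralogs of Slc25a25, which carry the same substrates, Slc25a23 came to -0.07 on the log2 scale (adjusted p = 0.850) after restraint and 0.20 (adjusted p = 0.251) with PSD among restrained mice, and Slc25a24 had -0.12 (adjusted p = 0.594) after restraint. Slc25a41 was listed between 0 and 0.109 CPM and was too low to test. Of the relatives of B3galt2, B3galt4 had -0.25 (adjusted p = 0.231), B3galt6 -0.16 (adjusted p = 0.402), B3galt1 -0.09 (adjusted p = 0.872) and B3galt5 0.15 (adjusted p = 0.898) after restraint, and none passed the test.

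Between the sexes, 6 of the 44 related genes were called, beside 14.9% of all genes. Pak7 (2.74, adjusted p = 5.5e-09), Pak6 (0.63, adjusted p = 0.000189) and Pak3 (0.37, adjusted p = 0.0337), all p21-activated kinase genes, were higher in females. Slc25a24 (-0.33, adjusted p = 5.0e-06), B3galnt1 (-0.37, adjusted p = 5.4e-08) and B3galt5 (-0.57, adjusted p = 0.00180) were lower in females. Pak7 stood at 8.83 ± 2.90 CPM in female controls and 0.848 ± 0.384 CPM in male controls (SD, n = 4).

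The surroundings of the 3 genes were examined because 2 of them share bases with a gene on the opposite strand. B3galt2 lies wholly within the span of Cdc73, on the minus strand, with 679 bases of exon in common. Slc25a25 shares 989 bases with Naif1 on the plus strand, 379 of them exonic. The library kit keeps the strand, but the strand setting of the counting is not given in the sources used here, so reads from these shared exon bases may not be told apart. Fam212b overlaps no protein-coding gene and has Ddx20 and Rap1a as protein-coding neighbours. Genes of other types were not searched.

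Cdc73, a subunit gene of the PAF1 transcription complex, was at 28.6 ± 2.42 CPM in female controls and 26.1 ± 2.32 CPM in restrained females (SD, n = 4). Its log2 fold change was -0.08 (SE 0.062, adjusted p = 0.760) after restraint and -0.13 (SE 0.059, adjusted p = 0.267) after PSD, both opposite in sign to B3galt2. Naif1, a nuclear apoptosis-inducing factor gene, was at 3.68 ± 0.445 CPM and 3.02 ± 0.111 CPM in the same groups (SD, n = 4), with -0.17 (adjusted p = 0.640) after restraint and -0.18 (adjusted p = 0.342) after PSD. Neither overlapping gene was called after restraint or PSD alone. For PSD + restraint against control, Cdc73 had -0.20 (adjusted p = 0.0329), under the fold change threshold, and Naif1 had -0.10 (adjusted p = 0.558). Between females and males, Cdc73 had 0.22 (adjusted p = 0.000293), higher in females and also under the fold change threshold, and Naif1 had 0.13 (adjusted p = 0.185).

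**Figure D4:**
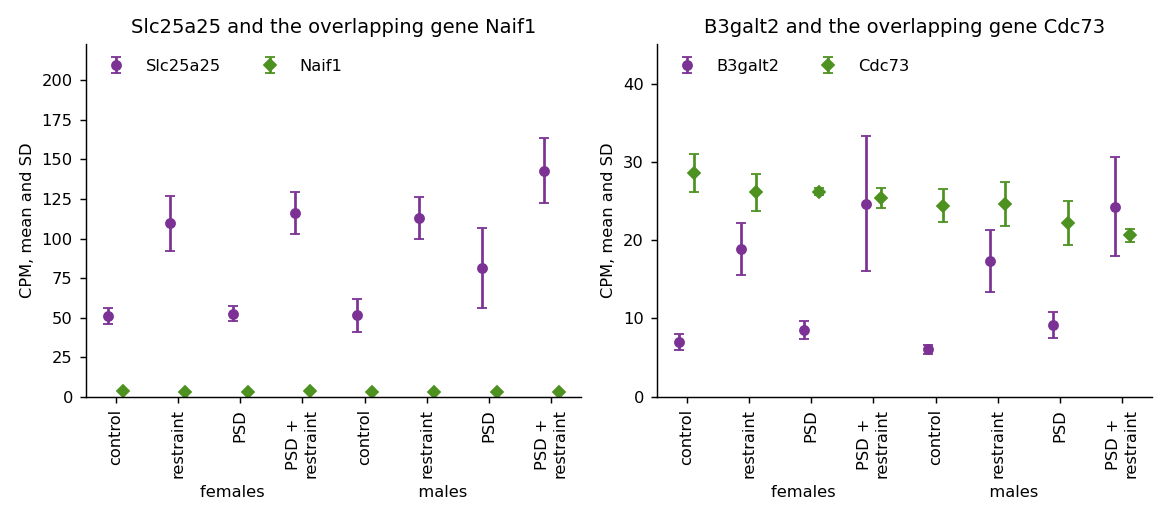
Mean and SD, in CPM on axes from 0, of Slc25a25 with the overlapping gene Naif1 (left) and of B3galt2 with the overlapping gene Cdc73 (right) in the 8 groups. Slc25a25 and B3galt2 go up in the restrained groups, while the means of Naif1 lie at 2.90 to 3.68 CPM and those of Cdc73 at 20.6 to 28.6 CPM.

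The nearest protein-coding neighbours without overlap did not pass the test after restraint alone or PSD alone. Beside Fam212b, Ddx20 had -0.05 (adjusted p = 0.870) after restraint and Rap1a 0.02 (adjusted p = 0.959). Beside Slc25a25, Ptges2 had 0.08 (adjusted p = 0.888) and Fam102a -0.02 (adjusted p = 0.965). Beside B3galt2, Glrx2 had -0.01 (adjusted p = 0.972) and Kcnt2, a potassium channel gene 3028597 bases away, 0.61 (SE 0.20, adjusted p = 0.153). Kcnt2 was called for PSD + restraint against control, at 0.64 (adjusted p = 0.0387). Between the sexes, Kcnt2 (0.51, adjusted p = 0.00709) and Fam102a (0.68, adjusted p = 4.5e-11) were called as higher in females.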

How the data were processed

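Pituitary RNA of 28 mice was sequenced as stranded, paired reads, and groups were taken from the sample labels. The authors mapped the reads to mm10 by MapSplice, and HTSeq 0.9.1 assigned them to UCSC genes in its intersection-nonempty mode. The deposited values used here are raw counts per gene and mouse. A second deposited table of normalized counts, each count divided by 1 size factor per mouse, was not used. Alignment and counting are therefore already in the values, and reads in bases shared by 2 genes may have been dropped or assigned by strand.

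The main test was the quasi-likelihood test of edgeR 4.0.16 in R 4.3.3, with TMM factors and filterByExpr. DESeq2 1.42.0 served as an alternative. Terms for sex, PSD, restraint and PSD by restraint followed the authors' DESeq2 1.16.1 analysis, for all mice and, without sex, for females and males apart. Sex differences in response came from a fit with a mean for each of the 8 groups. A call needed a p of 0.05 or less after Benjamini-Hochberg adjustment over all genes tested and a log2 fold change no smaller than 0.322. Their filter on TPM was not used here. TMM factors for CPM came from the whole table, and a prior count of 2 was added for log2 CPM. The scripts were tested on simulated data with 200 changed genes. For PSD, DESeq2 recovered 156 of these in females and 151 in males, and edgeR 151 and 130, while DESeq2 called more unchanged genes. The comparison of PSD + restraint with restraint was not simulated.

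The 3 genes, the lists of related and marker genes, and the tests were chosen with earlier results of these data known. Genes named beside the 3 are their paralogs, list genes called (up to 4 of smallest p per list and comparison), overlapping and neighbouring protein-coding genes in GENCODE M21, and the 3 genes of highest correlation with each. None of the 37 pairs of mice within a group was as close as 1 library counted again would be (chi-square over its degrees of freedom 7.48 or more). The labels mark each sample as a mouse and nothing more, so p-values measure the spread between these samples. Alternatives were DESeq2, DESeq2's size factors in edgeR, no filter on low counts, at least 10 counts in every mouse, a fit of just the 2 groups in question, the replicate number as a block, a marker score of the neurointermediate lobe or forebrain as a term, a call without the fold change limit, 0.5 as prior count, and the omission of every mouse in turn. Leaving out female PSD mouse 1 and male control mouse 1 together was added after seeing the data.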

Additional observations from a re-analysis of the deposited data

Results flagged for a closer look

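Among 15 sets of 4 mice (each gene in each group of 4), 2 held a mouse far from the others of its group by Dixon's test, for which chance gives about 1 in 20. Fam212b in female PSD mouse 4 was 23.7 CPM, below the other 3 mice of its group and just above the highest female control. Slc25a25 in female control mouse 1 was 58.8 CPM, above the other 3 controls, which lay between 48.0 and 48.8 CPM.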

How the results depend on the processing

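No restraint effect of the 3 genes changed direction or moved by more than the spread between mice under any alternative. That spread was the larger SD of log2 CPM of the 2 groups compared. The genes had been chosen for this effect in the same mice, so its stability is no independent support. Of 261 other estimates of the members with an alternative other than leaving out a mouse, 250 kept their direction and their side of the threshold. The PSD effect on Fam212b in all mice was 0.46 with the replicate block, 0.39 with the neurointermediate lobe score and 0.45 with female PSD mouse 1 and male control mouse 1 left out together, no longer called in each, and ranged from 0.45 to 0.53 with single mice left out. With DESeq2, Fam212b was called after PSD in females (0.56) and males (0.41), and among restrained mice in males (0.71) and in all mice (0.46). With the neurointermediate lobe score it was called among restrained males (0.67), while Slc25a25 in females turned to -0.0596 after PSD and to -0.00537 among restrained mice. With single mice left out, Fam212b among restrained mice ranged from 0.59 to 0.84 in males and from 0.39 to 0.54 in all mice, the female minus male level of B3galt2 from -0.00933 to 0.0958, and the sex difference of its PSD effect among restrained mice from -0.36 to 0.0934. Without a fold change threshold, the sex difference of Slc25a25 (-0.25) was called. Leaving out 1 of the 2 restrained males leaves a lone mouse, which is assumed to vary like the other groups. The causes of these changes were not tested.

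Counts of called genes moved more. For PSD against control in females, 5 genes became 442 with DESeq2, 14 with at least 10 counts in every mouse, 24 with the replicate block, 2 with the neurointermediate lobe score and 0 to 557 with single mice left out. In males, 1 became 85 with DESeq2, 11 without a filter, 2 with the block, 9 with the neurointermediate lobe and 3 with the forebrain score, 7 with both named mice left out and 0 to 7 with single mice left out. In all mice, 127 became 286 with DESeq2, 40 with the block, 31 and 81 with the scores, 45 without both mice and 31 to 227 with single mice left out. For PSD + restraint against restraint, 6 in females became 107 with DESeq2, 1 with the block, 3 and 2 with the scores and 1 to 41 with single mice left out. In males 1 became 123 with DESeq2, 6 with the neurointermediate lobe score and 0 to 4 with single mice left out, and in all mice 18 became 65 with DESeq2, 11 and 10 with the scores and 7 to 58 with single mice left out. Without a fold change threshold, 2822 genes called between the sexes became 6510, and 6 related genes became 22. For PSD + restraint against PSD, 1 related gene became 2 with DESeq2 and without a fold change threshold, and 1 to 2 with single mice left out. With the prior count of 0.5, Zc3h12c took the place of Gem as the third gene most like Fam212b (0.933).

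The replicate numbers of the labels recur in different groups, and whether mice of the same number shared a batch is not given. Of 39 pairs with the same sex and number, 4 had a correlation of deviations above 0.1 (median -0.026, highest 0.33). A batch shared by number was not tested. The block changed no call of the 3 genes other than that of Fam212b after PSD in all mice. Depth limited B3galt2 most, with 138 counts in its lowest library.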
